A study of Homo sapiens with 6 samples.

Results

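Oxidative phosphorylation is the respiratory pathway of mitochondria, in which complexes I to IV pass electrons to oxygen and complex V makes ATP. The genes described here are the protein-coding genes of the mitochondrial genome (chrMT) and the nuclear genes whose symbols mark them as subunits of complex I (NDUFA, NDUFB, NDUFC, NDUFS and NDUFV genes), complex II (SDHA to SDHD), complex III (UQCR genes), complex IV (COX4 to COX8 genes) and complex V (ATP5 genes). This rule gave 100 of the 58676 genes in the deposited table, 13 encoded in mitochondrial DNA and 87 encoded in the nucleus. The rule takes genes by symbol, so it also holds COX7A2L, ATP5S and ATP5SL, whose products are related to the complexes without being classical subunits, and NDUFA4, which is now counted with complex IV. It used no measured value.

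RNA was sequenced from DCIS.COM, an established basal-type human breast cancer cell line used as a model of ductal carcinoma in situ (DCIS). The NS control cells were transduced with a PLKO.1 lentiviral vector carrying a non-silencing shRNA and the BCL9 KD cells with PLKO.1 carrying an shRNA against BCL9, a coactivator of Wnt signaling, and both lines were selected with puromycin. Each group had 3 replicates, each grown in its own T75 flask, so p-values measure the spread between flasks of 1 transduced line per group, and a change in the cells that make up a culture and a change of RNA within each cell cannot be told apart. Values are FPKM, read counts scaled to gene length and to sequencing depth. Depth was between 15222452 and 26949026 reads per sample, as recovered from the FPKM.

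BCL9 had 6.25, 6.24 and 5.34 FPKM in NS control replicates 1 to 3 and 2.86, 2.78 and 2.59 FPKM in BCL9 KD replicates 1 to 3. The 3 BCL9 KD values lay below the 3 NS control values, with a log2 fold change of −0.99 (standard error 0.0933, adjusted p = 0.00773 in limma). The basal keratin KRT5 was between 379 and 436 FPKM over the 6 samples and 0 of the 7 basal epithelial markers were called by limma (1 higher and 1 lower at an unadjusted p under 0.05, 0 with voom). Of the 5 luminal markers, KRT8, KRT18 and GATA3 were expressed and 0 were called by limma (1 lower at an unadjusted p under 0.05, 0 with voom), while the receptor genes ESR1 and PGR were at most 0.0980 FPKM and at 0. The 4 immune markers were at most 0.0583 FPKM, and of the 5 fibroblast markers COL1A1 was at most 0.665 FPKM and the others at most 0.103 FPKM. The endothelial marker PECAM1 was higher in BCL9 KD cells (log2 fold change 0.61, adjusted p = 0.0477 in limma), while CDH5 and VWF, the other markers of that list, were at most 0.0534 FPKM.

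Every complex except complex II is built from both genomes. The mitochondrial genome encodes a few hydrophobic core subunits, transcribed from both strands as long precursors, while all other subunits are made from nuclear genes and imported. Many nuclear subunits are small accessory proteins that surround the catalytic core, and their genes are known targets of the transcription factors NRF1, GABPA (of the ETS family) and YY1.

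Promoter sequences of 300 bases, from 250 bases before to 50 bases after the RefSeq start (GRCh38.p14), were matched for 67 of the 87 nuclear genes. They were searched on both strands for the letters GCGCATGC (NRF1), CCGGAAG (ETS) and AAGATGG (YY1). The share of promoters with GCGCATGC was 19.4% (13 of 67) among the nuclear genes and 3.27% among all 27305 promoters. For CCGGAAG the shares were 28.4% (19 of 67) and 10.7%, and for AAGATGG they were 23.9% (16 of 67) and 6.06%. At least 1 of these motifs stood in 36 of the 67 promoters (53.7%), against 18.2% of all promoters. Among the 8 matched genes that were higher in BCL9 KD cells, 4 held a motif, and among the 52 matched genes that were tested and not called, 30 did. The 250 bases before the start are shown for NDUFB4 and COX7C, which are among the genes that rose, as examples of an NRF1 and a YY1 match. Capitals mark the motif. In NDUFB4 a match on each strand overlaps the other and the first begins 159 bases before the start, and in COX7C the match is on the opposite strand and begins 8 bases before it.
NDUFB4, chr3:120596086-120596335, plus strand: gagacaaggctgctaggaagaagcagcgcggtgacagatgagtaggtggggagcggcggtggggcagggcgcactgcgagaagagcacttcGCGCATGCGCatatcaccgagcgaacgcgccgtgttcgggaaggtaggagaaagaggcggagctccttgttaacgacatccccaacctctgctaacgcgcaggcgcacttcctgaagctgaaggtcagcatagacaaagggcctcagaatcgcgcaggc
COX7C, chr5:86617691-86617940, plus strand: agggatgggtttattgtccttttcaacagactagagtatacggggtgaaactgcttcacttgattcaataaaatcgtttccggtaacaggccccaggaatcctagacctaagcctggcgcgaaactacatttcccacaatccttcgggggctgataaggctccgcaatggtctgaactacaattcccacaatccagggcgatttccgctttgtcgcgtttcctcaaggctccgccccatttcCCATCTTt
The ETS letters stood 47 bases before the start of NDUFA1, on the opposite strand, and the YY1 letters 15 bases after the start of NDUFA12. No letters of the 3 motifs stood in the windows of COX7B, COX7A2, NDUFB6 and ATP5E.

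In BCL9 KD cells 10 nuclear-encoded genes were higher, 4 of them of complex IV, and 0 mitochondrially encoded genes were called by limma (3 higher and 3 lower at an unadjusted p under 0.05, and 1 higher and 3 lower with voom). Of the 87 nuclear genes, 74 had a mean of at least 0.5 FPKM over the 6 samples and were tested with limma on log2(FPKM + 0.5). Of these 74, 10 (13.5%) were higher in BCL9 KD cells at an adjusted p under 0.05, whereas 2.96% of all 13745 genes tested were higher and 5.87% were called in either direction. None was lower with limma (0 of 74, against 2.91% of all genes tested), 0 were lower at an unadjusted p under 0.05, and limma-voom on the recovered reads also called 0 lower. The log2 fold change was above 0 for 66 of the 74 genes (against 55.4% of all genes tested) and below 0 for 8, with a median of 0.32 and a range from −0.20 to 1.28, against a median of 0.04 over all genes tested. All 3 BCL9 KD values were above all 3 NS control values for 34 of the 74 genes (45.9%), compared with 17.8% of all genes tested, and below them for 1 gene, NDUFS1, compared with 16.4%.

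The 10 genes that rose were NDUFA1, NDUFA12, NDUFB4, NDUFB5 and NDUFB6 of complex I, COX6C, COX7A2, COX7B and COX7C of complex IV, and ATP5E of complex V. Each encodes a small subunit. The number of calls rested on single samples. It was 0 with limma when NS control replicate 2, BCL9 KD replicate 2 or BCL9 KD replicate 3 was left out (28, 29 and 28 genes higher at an unadjusted p under 0.05). In these fits only 0.0582%, 0.0509% and 0.0146% of all genes tested were higher. The number was 5 without NS control replicate 1, 17 without NS control replicate 3 and 28 without BCL9 KD replicate 1. The shares of all genes tested were 2.88%, 6.61% and 3.3%. It was also 0 with limma when genes were not filtered (38 higher at an unadjusted p under 0.05), and 1 without the mean-variance trend. In these fits 0.228% and 1.32% of all genes tested were higher. With the recovered reads and voom, 24 of the 74 genes were higher, against 5.19% of all genes tested.

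Genes outside the pathway were compared by transcript length. The tested nuclear genes had a median canonical transcript of 894 bases, against 3380 bases for all tested protein-coding genes. Among the other protein-coding genes with a transcript of at most 500 bases, the median log2 fold change was 0.39 and 16.9% (11 of 65) were higher, and among the 10 nuclear genes of that length it was 0.59 with 2 called. Between 500 and 1000 bases, the other genes had a median of 0.28 with 11.5% (61 of 530) higher, and the 30 nuclear genes a median of 0.39 with 4 called (13.3%). In these short ranges, which hold 40 of the 73 nuclear genes with a known transcript length, the share of nuclear genes that were higher was thus near that of other short genes.

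Between 1000 and 2000 bases the other genes had a median of 0.12 and the 15 nuclear genes 0.15, and 5.89% (115 of 1954) of the other genes were higher against 0 of the nuclear genes with limma. Between 2000 and 4000 bases the medians were 0.03 and 0.18, with 2 of 10 nuclear genes called (COX7B and ATP5E) and 2.86% of the other genes. Over 4000 bases they were −0.04 and 0.20, with 1 of 8 nuclear genes called (NDUFB5) and 1.05% of the other genes. After each sample was corrected for transcript length, a check chosen after seeing the data, 11 of 73 nuclear genes were higher, against 3.41% of the genes tested in that fit, and their median was 0.26. Among these 11 were 9 of the 10 genes above, and NDUFB6, which has no canonical transcript length, was not in that fit. GC content went with the log2 fold changes too. Of the 10 genes that rose, 2 had at most 40% GC and 7 between 40% and 45%. Other protein-coding genes had a median of 0.32 with 2.91% higher at up to 40% GC, and of 0.15 with 3.84% higher between 40% and 45%, so that their share of calls stayed near that of all genes tested. After the correction for GC content 20 of 74 nuclear genes were higher, against 6.94% of the genes tested in that fit, with a median of 0.34, and these held 8 of the 10 genes, without NDUFB5 and ATP5E. With both corrections together, chosen after seeing the data, 15 of 73 were higher, against 7.09% of the genes tested in that fit, with a median of 0.26. These held 6 of the 10 genes, as NDUFB4, NDUFB5 and ATP5E were no longer called and NDUFB6 was not in the fit. The part of transcript length and GC content in the changes of single genes was not tested.

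**Figure D1:**
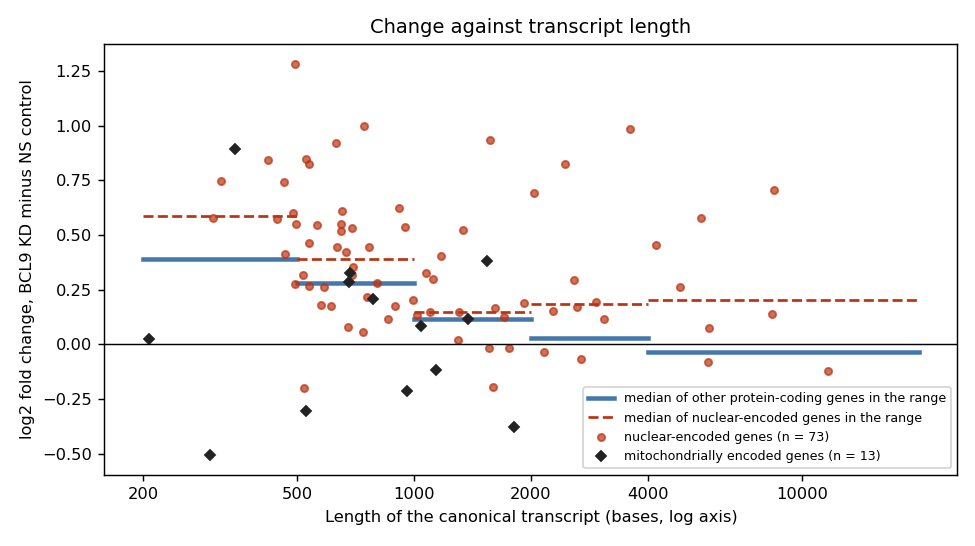
Log2 fold change (BCL9 KD minus NS control) against the length of the canonical transcript in bases (log axis). Circles are 73 nuclear-encoded genes, diamonds are 13 mitochondrially encoded genes, solid bars are medians of the other protein-coding genes in each length range and dashed bars those of the nuclear-encoded genes: the solid bars fall from 0.39 at up to 500 bases to −0.04 above 4000 bases, and the dashed bars lie above them in each range.

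Complex I, the NADH dehydrogenase that feeds electrons from NADH into the chain, had 37 nuclear genes, of which 34 were tested and 5 (14.7%) rose, against 2.96% of all genes tested. Their median log2 fold change was 0.30, from −0.20 for NDUFA13 to 0.84 for NDUFA1. NDUFA1 (ENSG00000125356, chromosome X, 119871487 to 119876662 on GRCh38), an accessory subunit needed for assembly of the membrane arm, had 35.9, 31.9 and 40.7 FPKM in NS control replicates 1 to 3 and 51.5, 69.3 and 76.8 FPKM in BCL9 KD replicates 1 to 3. The groups did not overlap, and BCL9 KD replicate 1 was the lowest of its group. The means were 36.2 ± 4.36 and 65.8 ± 13.0 FPKM (SD, n = 3), with a log2 fold change of 0.84 (standard error 0.160, adjusted p = 0.0372 in limma).

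The other 4 complex I genes that rose also encode accessory subunits. NDUFB6 (ENSG00000165264, chromosome 9, 32552999 to 32573184) had 17.7, 17.1 and 18.1 FPKM in NS control and 23.4, 29.2 and 30.3 FPKM in BCL9 KD replicates 1 to 3 (log2 fold change 0.63, standard error 0.106, adjusted p = 0.0291 in limma). NDUFB4 (ENSG00000065518, chromosome 3, 120596309 to 120602500), with the NRF1 match shown above, had 45.6, 35.7 and 41.1 FPKM in NS control and 52.9, 67.8 and 67.3 FPKM in BCL9 KD (0.61, standard error 0.13, adjusted p = 0.0466 in limma). NDUFA12 (ENSG00000184752, chromosome 12, 94897055 to 95003770) had 11.5, 12.1 and 12.2 FPKM in NS control and 15.4, 18.8 and 19.1 FPKM in BCL9 KD (0.55, standard error 0.0974, adjusted p = 0.0325 in limma). In all of these genes the groups were separate and BCL9 KD replicate 1 lay nearest to NS control. NDUFB5 (ENSG00000136521, chromosome 3, 179604690 to 179627647) went from 9.97, 10.6 and 11.9 FPKM in NS control to 13.8, 15.6 and 15.6 FPKM in BCL9 KD (0.46, standard error 0.0911, adjusted p = 0.0405 in limma). With the GC correction its log2 fold change was 0.26 and the call was lost (adjusted p = 0.108 in limma).

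NDUFS5, a small subunit of the intermembrane-space side, was the most abundant nuclear complex I gene per length. Its values were 196, 174 and 200 FPKM in NS control and 228, 310 and 302 FPKM in BCL9 KD, separate in all samples, and its log2 fold change of 0.55 missed the threshold (standard error 0.131, adjusted p = 0.0556 in limma). NDUFS1, the largest iron-sulfur subunit of the complex, had 11.9, 13.0 and 12.4 FPKM in NS control and 11.2, 11.8 and 11.2 FPKM in BCL9 KD, so that the BCL9 KD values lay just below (log2 fold change −0.12, adjusted p = 0.289 in limma). NDUFA13 had between 0.260 and 0.825 FPKM, from 16 to 41 reads, and its groups overlapped (−0.20, standard error 0.251, adjusted p = 0.625 in limma).

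Complex II, succinate dehydrogenase, also serves the TCA cycle and is entirely nuclear encoded. Its 4 genes were tested and 0 were called by limma (1 higher at an unadjusted p under 0.05, and 1, SDHD, with voom, against 14.5% and 5.19% of all genes tested), with a median log2 fold change of 0.14. SDHD, a membrane anchor, had 8.41, 9.69 and 12.4 FPKM in NS control and 12.9, 15.8 and 15.5 FPKM in BCL9 KD, where NS control replicate 3 and BCL9 KD replicate 1 nearly met (0.52, standard error 0.151, adjusted p = 0.0834 in limma). SDHB, the iron-sulfur subunit and the most abundant of the 4 per length, had 36.9, 33.0 and 32.3 FPKM in NS control and 36.1, 38.8 and 37 FPKM in BCL9 KD (0.13, adjusted p = 0.294 in limma). SDHA, the flavoprotein, had 16.4, 13.8 and 15.1 FPKM in NS control and 13.6, 14.6 and 14.9 FPKM in BCL9 KD (−0.07, adjusted p = 0.629 in limma). Both genes overlapped between the groups.

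Complex III, the cytochrome bc1 complex, passes electrons from ubiquinol to cytochrome c. Of its 9 nuclear genes, 8 were tested and 0 were called by limma, although 5 were higher at an unadjusted p under 0.05 and 4 with voom, against 14.5% and 5.19% of all genes tested. The median log2 fold change was 0.33. UQCRQ, a small membrane subunit, had 12.6, 14.2 and 18.1 FPKM in NS control and 21.1, 33.6 and 33.5 FPKM in BCL9 KD, and its log2 fold change of 0.93 stood at the threshold (standard error 0.210, adjusted p = 0.0501 in limma). UQCRH, the hinge protein, had 106, 86.9 and 95.8 FPKM in NS control and 112, 144 and 144 FPKM in BCL9 KD (0.46, standard error 0.124, adjusted p = 0.0718 in limma). UQCRC1, a large core subunit, was the lowest in log2 fold change, with 119, 99.9 and 93.4 FPKM in NS control and 94.0, 86.7 and 90.7 FPKM in BCL9 KD (−0.19, adjusted p = 0.253 in limma). UQCRQ and UQCRH thus had no overlap between the groups, while UQCRC1 overlapped.

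Complex IV, cytochrome c oxidase, hands electrons to oxygen, and its nuclear genes stood highest. Of 17 nuclear genes, 11 were tested, 4 (36.4%) rose, against 2.96% of all genes tested, and all 11 had a log2 fold change above 0, against 55.4%. The median was 0.74. The 3 BCL9 KD values were above the 3 NS control values for 9 of the 11, against 17.8% of all genes tested. COX7B (ENSG00000131174, chromosome X, 77899438 to 77907373), a small transmembrane subunit, had the lowest adjusted p of the nuclear genes, with 15.1, 13.0 and 15.6 FPKM in NS control and 22.5, 29.3 and 27.1 FPKM in BCL9 KD (0.82, standard error 0.118, adjusted p = 0.0196 in limma). COX7C (ENSG00000127184, chromosome 5, 86617904 to 86620962), whose YY1 match is shown above, had 47.1, 43.0 and 55.1 FPKM in NS control and 69.3, 106 and 106 FPKM in BCL9 KD (0.92, standard error 0.181, adjusted p = 0.0387 in limma). In both genes BCL9 KD replicates 2 and 3 were well above replicate 1, which itself was above every NS control sample.

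COX6C (ENSG00000164919, chromosome 8) went from 9.12, 9.17 and 12.4 FPKM in NS control to 16.4, 23.7 and 22.9 FPKM in BCL9 KD (1.00, standard error 0.174, adjusted p = 0.0308 in limma). COX7A2 (ENSG00000112695, chromosome 6, 75237675 to 75250323), the widely expressed form of subunit VIIa, had 32.6, 29.9 and 32.9 FPKM in NS control and 42.4, 62.1 and 57.8 FPKM in BCL9 KD (0.74, standard error 0.142, adjusted p = 0.0374 in limma). COX6B1, the most abundant nuclear complex IV gene per length, had 100.3, 84.3 and 92.4 FPKM in NS control and 114, 152 and 158 FPKM in BCL9 KD (0.60, standard error 0.139, adjusted p = 0.0525 in limma). In these genes too, BCL9 KD replicate 1 was the lowest of its group and above every NS control sample. COX8A showed the largest log2 fold change of all nuclear genes, 1.28, with a large error (standard error 0.403, adjusted p = 0.1 in limma): it had 5.99, 6.04 and 10.4 FPKM in NS control and 9.60, 22.0 and 29.0 FPKM in BCL9 KD. Here BCL9 KD replicate 1 lay below NS control replicate 3, so the groups overlapped, and COX8A shares its strand and position with another protein-coding gene.

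Several complex IV subunits have a widely expressed and a tissue-restricted form. COX4I1 had 34.1, 26.5 and 31.0 FPKM in NS control and 35.9, 45.7 and 43.7 FPKM in BCL9 KD (0.45, adjusted p = 0.0811 in limma), whereas COX4I2 was listed at 0 in all 6 samples. COX6A1 had between 1.61 and 2.49 FPKM in NS control and between 2.99 and 4.61 FPKM in BCL9 KD, from 45 to 135 reads (0.82, adjusted p = 0.0528 in limma), and COX6A2, the heart and muscle form, was listed at 0. COX7A1, the muscle form beside COX7A2, had between 0.0635 and 0.491 FPKM, and COX6B2, the testis form beside COX6B1, had between 0.0777 and 0.208 FPKM. COX8C had 1 read in BCL9 KD replicate 2 and none in the other samples. COX7A2L, which joins complexes into supercomplexes, had the smallest change of the 11 tested genes, with 20.7, 18.1 and 19.3 FPKM in NS control and 20.1, 22.0 and 22.7 FPKM in BCL9 KD (0.15, adjusted p = 0.269 in limma).

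Complex V, the ATP synthase, had 20 nuclear genes, of which 17 were tested and 1 (5.88%) rose, against 2.96% of all genes tested. The median log2 fold change was 0.22. ATP5E (ENSG00000124172, chromosome 20, 59025467 to 59032382), the epsilon subunit of the central stalk, had 7.39, 6.94 and 9.62 FPKM in NS control and 11.6, 18.6 and 19.4 FPKM in BCL9 KD, with separate groups (0.98, standard error 0.210, adjusted p = 0.0466 in limma). ATP5B, the catalytic beta subunit, was the most abundant nuclear gene of the pathway per length, at 412, 355 and 339 FPKM in NS control and 337, 374 and 378 FPKM in BCL9 KD. Its groups overlapped and its log2 fold change was −0.02 (standard error 0.0974, adjusted p = 0.916 in limma), a sign that turned to 0.04 with the GC correction. The ratio of COX7C to ATP5B, which does not depend on scaling between samples and was chosen after the values were seen, was 0.114, 0.121 and 0.163 in NS control and 0.205, 0.282 and 0.279 in BCL9 KD.

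**Figure D2:**
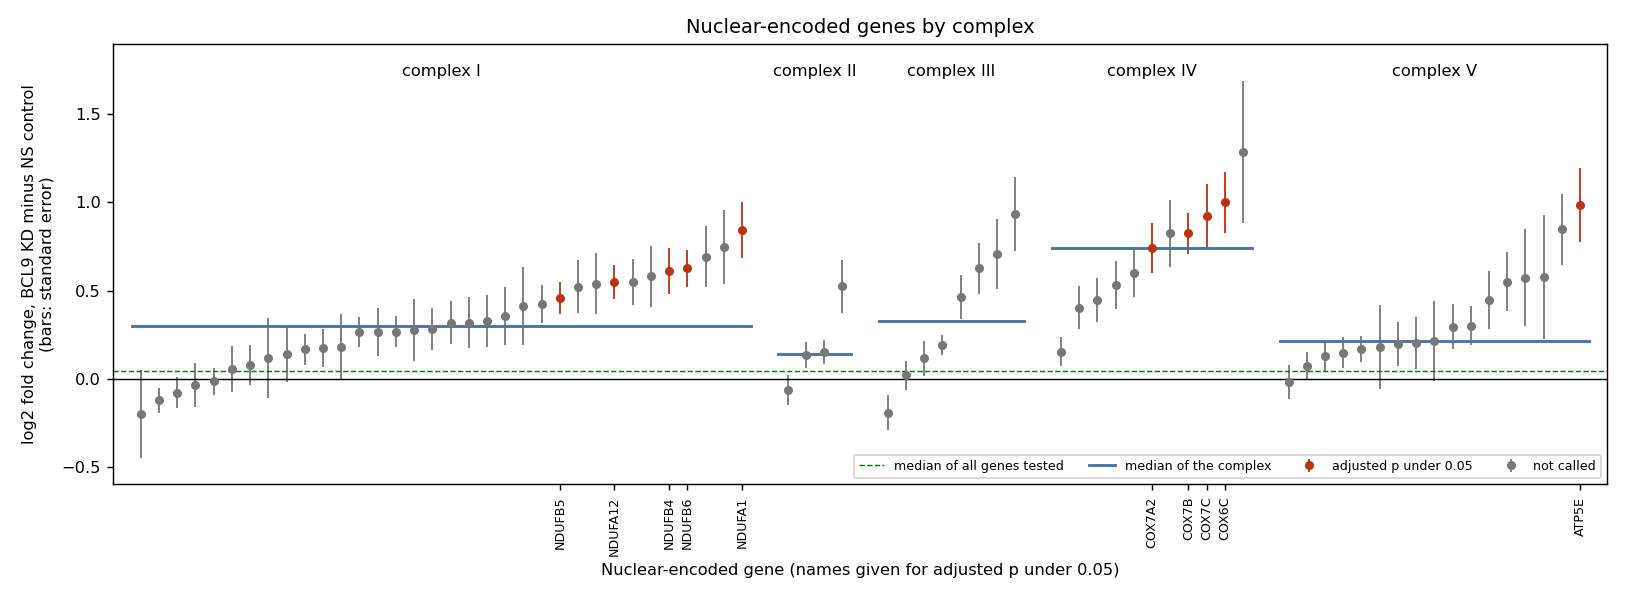
Log2 fold change (BCL9 KD minus NS control) of the 74 tested nuclear-encoded genes, grouped by complex and ordered within it, with standard errors as bars. The 10 genes with an adjusted p under 0.05 are coloured and named, horizontal lines give the median of each complex (0.30, 0.14, 0.33, 0.74 and 0.22 for I to V) and the dashed line gives the median of all genes tested, 0.04.

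**Figure D3:**
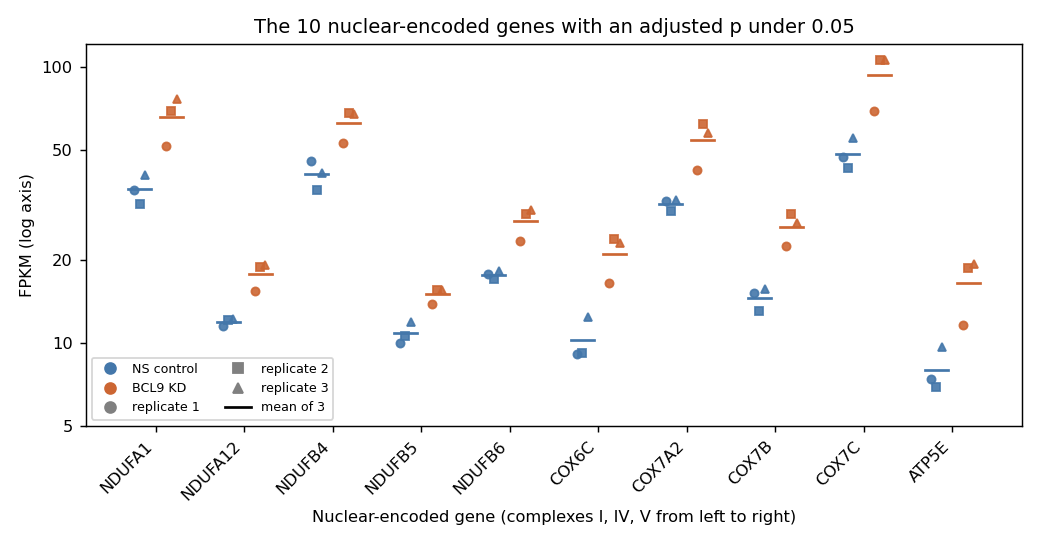
FPKM (log axis) in every sample for the 10 nuclear-encoded genes that rose, with a symbol for each replicate number and lines at the mean of 3 samples. In each gene the 3 BCL9 KD samples are above the 3 NS control samples, and BCL9 KD replicate 1 is the lowest of its group.

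The samples of a group differed among themselves. For each gene, the log2 value of a sample was set against the mean of NS control, and the median over the 74 nuclear genes was 0.04, −0.11 and 0.07 in NS control replicates 1 to 3 and 0.10, 0.45 and 0.48 in BCL9 KD replicates 1 to 3. BCL9 KD replicate 1 was thus close to NS control replicate 3, and for 69 of the 74 genes it was the lowest of the BCL9 KD samples. For complex IV the medians were 0.39, 0.82 and 0.85 in BCL9 KD replicates 1 to 3, against 0.10 for the highest NS control sample. The nuclear genes received 0.613%, 0.544% and 0.581% of the reads in NS control and 0.611%, 0.735% and 0.736% in BCL9 KD, so that BCL9 KD replicate 1 was within the NS control range by this measure. Its BCL9 value, 2.86 FPKM, was near those of the other BCL9 KD samples.

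**Figure D4:**
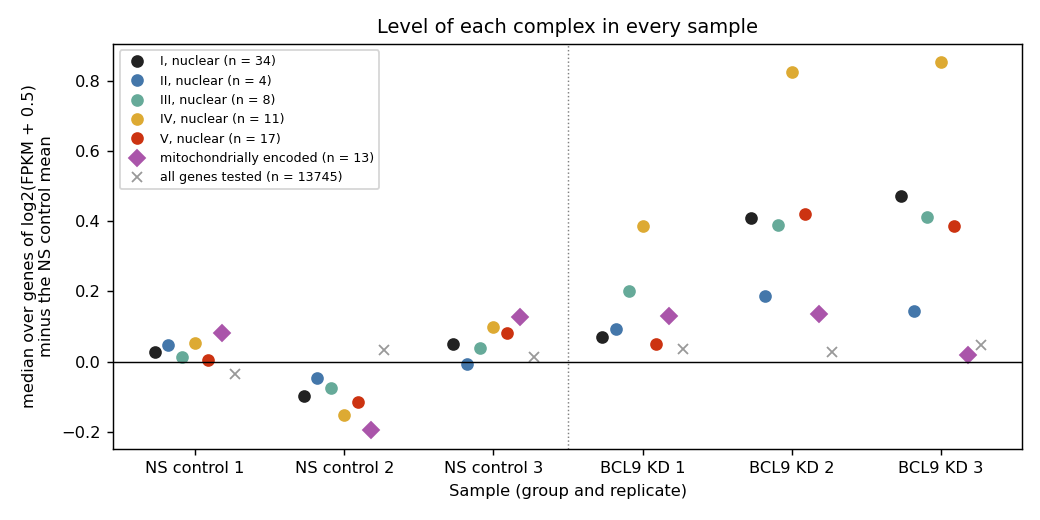
Median over genes of log2(FPKM + 0.5) minus the NS control mean, for the nuclear genes of each complex, the 13 mitochondrially encoded genes and all genes tested, in each of the 6 samples. The nuclear genes of complex IV reach 0.82 and 0.85 in BCL9 KD replicates 2 and 3 and 0.39 in replicate 1, while all genes tested stay between −0.03 and 0.05.

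The deposited gene lengths of the tested nuclear genes were between 0.936 and 10.8 times the canonical transcript, with a median of 2.42 times, so FPKM understate the level per transcript length to different extents, except for NDUFB7 and UQCRQ, whose deposited length was the shorter one. Of the 87 nuclear genes, 20 share strand and position with another protein-coding gene in the table, where reads that fit both are not counted by default. Among the 14 tested of these, 0 were called by limma, where 2.96% of all genes tested were higher. At an unadjusted p under 0.05, 4 were higher, and 2 with voom, against 14.5% and 5.19% of all genes tested. The part of the overlap in these counts was not tested. Of the 10 genes that rose, 5 overlap a gene on the opposite strand: NDUFA1 with RNF113A, NDUFB5 with snoU13, NDUFB6 with TOPORS-AS1, COX6C with VPS13B and ATP5E with TUBB1. The strand setting of the counting is not given in the sources used here, so their values are uncertain to that extent. On the same strand, COX7C overlaps AC108110.1 and NDUFB6 overlaps DFFBP1, which are not protein-coding. There too, reads that fit both are not counted by default. The 13 nuclear genes that were not tested had a mean of at most 0.373 FPKM, 6 of them share strand and position with such a gene and 3 were listed at 0 in all samples. NDUFB8, NDUFA7 and NDUFS7, subunits of complex I that respiring cells use, were among them, with 6 to 42 reads per sample.

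All 13 mitochondrially encoded genes were tested, and 12 of them, all but MT-ATP8, had a higher mean FPKM than any nuclear gene of the pathway. They took 4.93%, 3.93% and 4.87% of the reads in NS control and 5.57%, 5.08% and 4.83% in BCL9 KD, which overlapped. With limma, 0 were called in either direction, against 2.96% higher and 2.91% lower among all genes tested. At an unadjusted p under 0.05, 3 were higher and 3 lower, against 14.5% and 13% of all genes tested. Voom on the recovered reads called 1 higher (MT-ND3) and 3 lower (MT-ND4L, MT-ND5 and MT-ND6), against 714 and 689 of all 13745 genes tested. The median log2 fold change was 0.08, and it turned to −0.01 with quantile normalization or without NS control replicate 2 and to −0.13 with the GC and transcript length corrections together. All 3 BCL9 KD values were above NS control for 4 of the 13 genes (MT-ND3, MT-CO1, MT-CO2 and MT-ATP6), compared with 17.8% of all genes tested. They were below for 3 (MT-ND4L, MT-ND5 and MT-ND6), compared with 16.4%.

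The complex I subunits of this genome differed most among themselves. MT-ND3 had 2547, 1817 and 3143 FPKM in NS control and 3932, 4970 and 4784 FPKM in BCL9 KD (log2 fold change 0.89, standard error 0.208, adjusted p = 0.0529 in limma). MT-ND4L, the next protein-coding gene along the genome, had 2120, 1753 and 2442 FPKM in NS control and 1414, 1479 and 1510 FPKM in BCL9 KD (−0.51, standard error 0.13, adjusted p = 0.0640 in limma). The ratio of MT-ND3 to MT-ND4L was 1.20, 1.04 and 1.29 in NS control and 2.78, 3.36 and 3.17 in BCL9 KD. The ratio was chosen after the values were seen, so it is a description with no test, and both genes are short, with 346 and 297 bases. MT-ND4L overlaps the start of MT-ND4 by a few bases on the same strand, where reads shared by both are not counted by default. Its level is uncertain to that extent. MT-ND4 itself had a log2 fold change of 0.12 (adjusted p = 0.493 in limma). The part of the counting in the difference between these neighbours was not tested.

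MT-ND5 had 2846, 2537 and 2654 FPKM in NS control and 2367, 1932 and 1908 FPKM in BCL9 KD (−0.38, standard error 0.114, adjusted p = 0.0923 in limma). MT-ND6, the only member on the other strand of the mitochondrial genome, had 1830, 1792 and 2065 FPKM in NS control and 1517, 1543 and 1530 FPKM in BCL9 KD (−0.31, standard error 0.0874, adjusted p = 0.0816 in limma). Both genes were lower in all 3 BCL9 KD samples. As the strand setting of the counting is not given, reads from the opposite strand may be counted in MT-ND6, so its level is uncertain. MT-ND1 had a log2 fold change of −0.21 (adjusted p = 0.260 in limma), MT-ND2 of 0.08 (adjusted p = 0.645 in limma) and MT-ND4 of 0.12 (adjusted p = 0.493 in limma), with overlapping groups. The signs of MT-ND2 and MT-ND4 depended on the processing.

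MT-CYB, the only complex III subunit of this genome, had 2633, 2075 and 2243 FPKM in NS control and 2390, 2044 and 1974 FPKM in BCL9 KD, with overlap (−0.12, standard error 0.125, adjusted p = 0.570 in limma). For complex IV, MT-CO1, the subunit that binds oxygen, was the most abundant gene of the pathway, at 9852, 7812 and 9846 FPKM in NS control and 13386, 11356 and 10992 FPKM in BCL9 KD (0.38, standard error 0.143, adjusted p = 0.145 in limma). It took 30.8%, 30.7% and 31.2% of the reads on the 13 genes in NS control and 37.1%, 34.5% and 35.1% in BCL9 KD, while MT-ND5 took 10.5%, 11.7% and 9.87% in NS control and 7.70%, 6.89% and 7.16% in BCL9 KD. MT-CO2 had 8915, 6080 and 8594 FPKM in NS control and 9958, 9959 and 9273 FPKM in BCL9 KD (0.33, adjusted p = 0.243 in limma). MT-CO3 overlapped between the groups (0.21, adjusted p = 0.462 in limma). The changes of MT-CO1, MT-CO2 and MT-CO3 were 0 with quantile normalization, which gives the most abundant genes the same values in every sample.

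For complex V, MT-ATP6 had 3335, 2805 and 3547 FPKM in NS control and 3978, 4026 and 3753 FPKM in BCL9 KD (0.29, standard error 0.114, adjusted p = 0.162 in limma). MT-ATP8 was listed at 8.72, 6.21 and 14.9 FPKM in NS control and 6.29, 14.2 and 9.56 FPKM in BCL9 KD, from 23 to 79 reads, and the groups overlapped (0.02, standard error 0.365, adjusted p = 0.972 in limma). MT-ATP8 overlaps MT-ATP6 on the same strand, where reads shared by both are not counted by default, so its level is uncertain. When each sample was centred on its own mean over the 13 genes, MT-ND3, MT-CO1, MT-CO2 and MT-ATP6 were higher and MT-ND1, MT-ND4L, MT-ND5 and MT-ND6 were lower in every BCL9 KD sample than in every NS control sample, a comparison that does not depend on scaling between samples. That mean includes MT-ATP8 with its few reads. By share of the reads on the 13 genes, which is also free of scaling, MT-CO2 overlapped (12.4% in NS control replicate 1, 12.2% in BCL9 KD replicate 1). MT-ATP6 overlapped too (4.96% in NS control replicate 3, 4.86% in BCL9 KD replicate 1). By that share MT-CYB and MT-ND2 were also lower in every BCL9 KD sample.

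**Figure D5:**
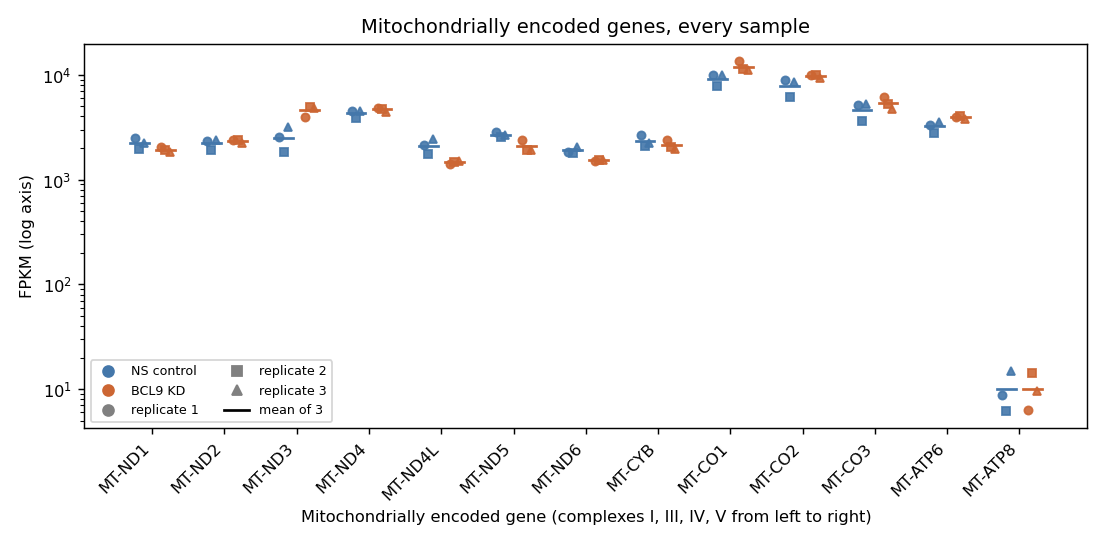
FPKM (log axis) of the 13 mitochondrially encoded genes in every sample, with a symbol for each replicate number and lines at the mean of 3 samples. MT-ND3 is higher and MT-ND4L, MT-ND5 and MT-ND6 are lower in all 3 BCL9 KD samples, and MT-ATP8 stands apart at 6.21 to 14.9 FPKM.

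Of the other 24 genes listed on chrMT, 21 were at 0 in all samples. The 12S and 16S ribosomal RNA genes had lower values in BCL9 KD cells without passing the threshold. MT-RNR1 had 1456, 1013 and 1781 FPKM in NS control and 932, 768 and 753 FPKM in BCL9 KD (−0.76, standard error 0.207, adjusted p = 0.0735 in limma), and MT-RNR2 had 4070, 3257 and 4400 FPKM in NS control and 3147, 2270 and 2184 FPKM in BCL9 KD (−0.63, standard error 0.179, adjusted p = 0.0797 in limma). Both were separate between the groups. How ribosomal RNA was removed in library preparation is not given in the sources used here, and its part in these values was not tested.

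Genes around the pathway were described by lists, whose counts stand against 14.5% higher and 13% lower at an unadjusted p under 0.05 among all genes tested. The 8 subunits and carriers outside the rule, such as cytochrome c (CYCS), had 0 calls by limma (3 higher and 1 lower at an unadjusted p under 0.05, and 2 higher and 1 lower with voom) and a median log2 fold change of 0.31. Of 46 tested assembly factors, 2 rose, against 2.96% of all genes tested, and 0 fell with limma, while 16 were higher and 1 lower at an unadjusted p under 0.05 and 4 higher and 0 lower with voom. Their median was 0.18. COX17, which delivers copper to complex IV, had 16.1, 15.2 and 15.8 FPKM in NS control and 21.5, 26.7 and 27.8 FPKM in BCL9 KD (0.67, standard error 0.106, adjusted p = 0.0255 in limma), and SDHAF4, an assembly factor of complex II, rose by 0.64 on the log2 scale (adjusted p = 0.0387 in limma).

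Of 32 tested genes for transcription, RNA handling and replication of mitochondrial DNA, 2 rose and 2 fell, against 2.96% higher and 2.91% lower among all genes tested. HSD17B10, which is both a fatty acid and steroid dehydrogenase and a subunit of the RNase P that cuts mitochondrial precursor RNA, had 24.8, 20.4 and 19.1 FPKM in NS control and 54.3, 62.5 and 60 FPKM in BCL9 KD. It had the largest change of the list, 1.44 (standard error 0.110, adjusted p = 0.00556 in limma). TFB1M, which methylates the 12S ribosomal RNA, rose by 0.58 (adjusted p = 0.0340 in limma), while C10orf2, the mitochondrial DNA helicase Twinkle, fell by 0.39 (adjusted p = 0.0452 in limma) and FASTKD5, which acts in RNA processing, fell by 0.36 (adjusted p = 0.0466 in limma). TFAM, the packaging and transcription factor of mitochondrial DNA, had 11.1, 17.8 and 21.0 FPKM in NS control and 19.4, 19.7 and 20.3 FPKM in BCL9 KD, where NS control replicate 1 stood apart (0.29, adjusted p = 0.397 in limma).

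Among 12 tested regulators of mitochondrial biogenesis, 0 rose with limma and 1 fell, against 2.96% and 2.91% of all genes tested (2 higher and 3 lower at an unadjusted p under 0.05, 0 higher and 2 lower with voom). This was PPRC1, a coactivator related to PGC-1, with 25.2, 22.5 and 19.5 FPKM in NS control and 16.0, 16.0 and 16.2 FPKM in BCL9 KD (−0.46, standard error 0.0989, adjusted p = 0.0466 in limma). PPARGC1A, which encodes PGC-1 alpha, had between 1.67 and 2.63 FPKM in NS control and between 2.39 and 2.80 FPKM in BCL9 KD (0.16, adjusted p = 0.515 in limma). Of 24 genes of the TCA cycle and pyruvate entry, 1 rose and 0 fell with limma, against 2.96% and 2.91% of all genes tested (6 higher and 2 lower at an unadjusted p under 0.05, 2 higher and 1 lower with voom), with a median of 0.01. The gene that rose, PDK4, encodes a kinase that inhibits pyruvate dehydrogenase, and it had 1.56, 1.43 and 1.58 FPKM in NS control and 3.12, 3.08 and 2.64 FPKM in BCL9 KD (0.76, standard error 0.103, adjusted p = 0.0178 in limma).

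Of 74 tested mitochondrial ribosomal protein genes, 1 rose (MRPS33, 0.62, adjusted p = 0.0387 in limma), against 2.96% of all genes tested, and 0 fell with limma. At an unadjusted p under 0.05, 22 were higher and 1 lower, against 14.5% and 13% of all genes tested (5 higher and 1 lower with voom). Their median was 0.13. Of 17 tested glycolysis genes, 0 rose with limma and 1 fell, against 2.96% and 2.91% of all genes tested. At an unadjusted p under 0.05, 0 were higher and 6 lower, against 14.5% and 13% (0 higher and 1 lower with voom). The log2 fold change was above 0 for 3 and below 0 for 14, where 55.4% of all genes tested were above 0. The glycolysis median was −0.21. PFKP, a phosphofructokinase, had 85.6, 77.4 and 69.5 FPKM in NS control and 55.9, 56.6 and 55.9 FPKM in BCL9 KD (−0.46, standard error 0.0867, adjusted p = 0.0370 in limma). The median canonical transcript was 2305 bases for glycolysis and 1288 bases for mitochondrial ribosomal proteins.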

How the data were processed

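RNA was extracted from 3 NS control and 3 BCL9 KD cultures, and libraries were prepared with a NEBNext Ultra kit and sequenced by a service company. Per the labels and the submitters' processing notes, reads were aligned with STAR to hg38 and counted with HTSeq 0.6.1. The strand setting is not given in the sources used here. The authors deposited gene-level FPKM, with gene lengths, in 1 table. The FPKM gave whole reads, within 0.1 read, for 100% of the values above 0, which gave the depths stated.

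The deposited FPKM were tested with limma 3.58.1 (R 4.3.3) on log2(FPKM + 0.5), with a mean-variance trend, for the 13745 genes with a mean of at least 0.5 FPKM, and p-values were adjusted over all of them by Benjamini-Hochberg. Fold changes on this scale understate those of low genes. In simulated data with known changes for this comparison, limma called 93 of 193 changed genes among 13766 genes and 6 unchanged genes, and voom called 146 and 10. The simulated reads had the same dispersion for every gene. Samples differed only in depth and the set changes, with no trend by GC content or length. The counts of false calls therefore do not carry over to the real samples. Limma-voom on the recovered reads served as the count alternative. Corrections for GC content or length were loess fits within each sample (span 0.3). Data were handled with Python 3.11.15, pandas 2.3.3 and numpy 2.4.6, and plots were made with matplotlib 3.10.9. Promoter sequences and transcript lengths came from the reference tables given with the data.

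The genes and gene lists were chosen with earlier results of these data known. Named with values are BCL9, all mitochondrially encoded genes, nuclear genes past the threshold, the most abundant gene and those with the largest rise and fall in each complex, paired tissue forms of complex IV subunits, list genes past the threshold, TFAM and PPARGC1A. NDUFS1, MT-RNR1, MT-RNR2 and the markers were added after the values were seen. The study's methods describe 2 replicates per group, while 3 were deposited and used. A result that needs a withheld item is not reported here.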

Additional observations from a re-analysis of the deposited data

How the results depend on the processing

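Over the main analysis and all alternatives, no nuclear gene was called lower. Percentages in brackets are the share of all genes tested in the same fit that were higher. Against 10 nuclear genes higher (2.96%), the number was 16 with a mean of at least 1 FPKM (4.34%) and 0 without a filter (0.228%). It was 16 with quantile normalization (3.42%), 1 without the mean-variance trend (1.32%) and 20 with the GC correction (6.94%). With voom it was 24 (5.19%), and among protein-coding genes alone 23 (6.61%). It was 0 to 28 when 1 sample was left out, 17 without NS control replicate 3 (6.61%) and 28 without BCL9 KD replicate 1 (3.3%). The nuclear median stayed between 0.25 and 0.47. Against 807 genes called in all, the number was 142 without a filter, 332 without the trend, 1673 with the GC correction, 1403 with voom, 1409 among protein-coding genes, 1582 with the GC and transcript length corrections and 5 to 1712 when 1 sample was left out. Of the mitochondrially encoded genes, 1 was higher with a mean of at least 1 FPKM, 2 higher and 1 lower with quantile normalization, 2 lower with the GC correction, 1 higher and 3 lower with voom, 1 higher and 1 lower among protein-coding genes, 1 lower with both corrections, and 0 to 1 in either direction when 1 sample was left out. The cause of these shifts was not tested.

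The replicate numbers, shared by the groups, did not pair the samples: the correlations of deviations between samples of the same number were −0.147, −0.0884 and −0.00287. With the replicate number as a block, 0 nuclear genes and 0 genes in all were called by limma (34 nuclear genes higher and 3235 genes in all at an unadjusted p under 0.05). With the block, 0 and 0 were called with the length correction, 2 and 177 with the GC correction, 0 and 50 with the transcript length correction, and 7 and 502 with the GC and transcript length corrections.

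Some signs turned. The median of the mitochondrially encoded genes became −0.0063 with quantile normalization and −0.13 with both corrections, with or without the block, and ranged from −0.013 to 0.15 when 1 sample was left out. MT-ATP8 became −0.0075 after median-of-ratios scaling, −0.018 after quantile normalization, and −0.16 after the GC correction, alone, with transcript length or with the block, and −0.25 to 0.35 when 1 sample was left out. MT-ND4 became −0.14 with quantile normalization and −0.031 with both corrections. MT-ND2 became −0.021 with the transcript length correction and −0.13 with both, and was −0.013 to 0.14 when 1 sample was left out. ATP5B became 0.040 with the GC correction and was −0.077 to 0.063 when 1 sample was left out, and SDHB became −0.00065 with both corrections. The median of all genes was 0.04, and −0.01 with quantile normalization. The transcript length corrections were chosen after seeing the data. Depth limits genes with few reads, such as NDUFA13 and MT-ATP8.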
